A study of Homo sapiens with 4 samples.

Results

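The forkhead factors are transcription factors that share a winged-helix DNA-binding domain. The 10 genes described here were chosen by symbol: FOXM1, the FOXO genes FOXO1, FOXO3, FOXO4 and FOXO6, the FOXK genes FOXK1 and FOXK2, and FOXJ3, FOXP1 and FOXN3. All 10 were found among the 25737 genes of the deposited table, and 9 of them had enough reads to be tested.

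FOXM1 is an activator of genes used in G2 phase and mitosis, and it acts on many of them through the MuvB complex. FOXO factors are held in the cytoplasm after phosphorylation by AKT, the kinase downstream of PI3K, and in the nucleus they activate genes of cell cycle arrest, apoptosis and autophagy. FOXK1 and FOXK2 are repressors that recruit the SIN3 and BAP1 complexes, and FOXP1 is a repressor that works with the NuRD and CtBP corepressors.

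The data are 3′ RNA-sequencing libraries from cells labelled SKOV-3, a cell line of human ovarian cancer. Of the 4 libraries, 2 are solvent controls (DMSO) and 2 are of cells kept for 24 h in 40 µM RAME (rosmarinic acid methyl ester, made from a phenolic acid of plants). The comparison asks which transcripts differ after RAME, and the study is centred on FOXM1. Nothing in the labels ties a library to a culture of its own, and the p-values therefore rest on a spread between libraries that may be technical.

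Assigned reads ranged from 1441575 to 2543566 per library, and both RAME libraries were smaller than both DMSO libraries. In edgeR's quasi-likelihood test 612 of 4517 tested genes, or 13.5%, had an adjusted p under 0.05, of which 47.7% were higher with RAME. That share was 59.3% with upper quartile scaling and 36.9% in DESeq2. Of 10 markers of epithelial ovarian cancer cells, 5 had no read in any library (KRT7, KRT19, EPCAM, ERBB2 and MSLN), and the most abundant was PAX8 with 9 to 24 reads. Their summed level was 8.42 to 9.18 CPM (reads scaled to a common library total) with DMSO and 8.09 to 18.0 CPM with RAME, so the labelled cell type was not seen in its defining markers. Of 12 markers of other cell types, 6 were at 0 in all libraries, while the neuronal gene SNAP25 had 33 to 54 reads and the liver gene ALB 5 to 149. The sum of these 12 ran from 25.3 to 85.5 CPM with DMSO and from 51.4 to 98.8 CPM with RAME, and its part in the results below was not tested.

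Among the 9 tested forkhead genes, FOXO4 rose with RAME, FOXK1, FOXO6 and FOXP1 fell, and FOXO1, FOXO3, FOXK2, FOXJ3 and FOXN3 did not pass the test. Among all tested genes 6.46% were called higher and 7.08% lower. The median log2 fold change of the 9 genes was −0.38, against 0.0067 for all tested genes. Both RAME libraries lay above both DMSO libraries for 3 of the 9 genes and below them for 5, while 31.1% and 29.5% of all tested genes did so. Fewer cells with a transcript and less of it per cell cannot be told apart in bulk RNA.

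**Figure D1:**
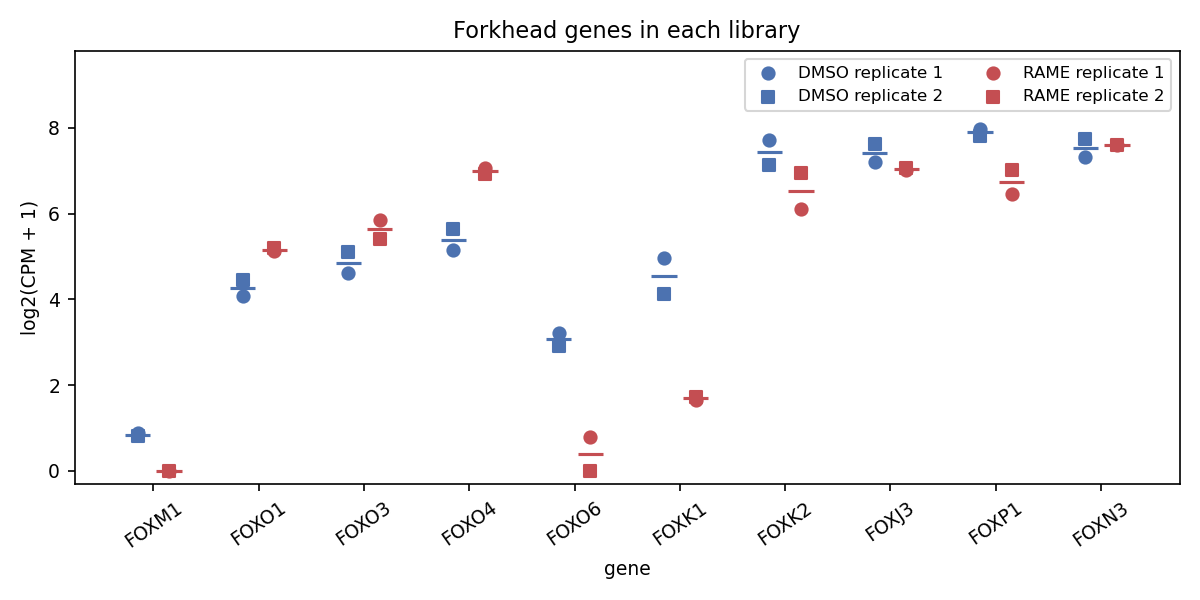
Level of each forkhead gene in each library, as log2(CPM + 1) with TMM scaling; points are the 4 libraries and lines the mean of the 2 libraries of a group. FOXO4 is higher in both RAME libraries, FOXK1, FOXO6 and FOXP1 are lower in both, and FOXM1 lies at the bottom with 2, 2, 0 and 0 reads.

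FOXK1 and FOXO4, whose calls held in all 17 alternatives, and TOP2A, a FOXM1 target described further on, are shown by their promoters, from RefSeq on GRCh38.p14. The deposited table was made on hg19, so these positions belong to the promoters only. Capitals mark the motif searched, which was GTAAACA, the forkhead element bound by FOXO factors, for the FOXK1 and FOXO4 windows, and TTTGAA, the cell cycle genes homology region at which MuvB binds, for TOP2A. Both strands were searched, and each promoter runs from 250 bases before the gene start.
FOXK1, chr7:4682045-4682294, plus strand: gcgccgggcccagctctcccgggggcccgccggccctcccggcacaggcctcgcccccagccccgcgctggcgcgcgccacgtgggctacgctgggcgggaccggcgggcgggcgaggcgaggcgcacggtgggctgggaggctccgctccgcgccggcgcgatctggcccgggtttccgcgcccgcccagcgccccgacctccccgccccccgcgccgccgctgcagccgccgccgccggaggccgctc
FOXO4, chrX:71095601-71095850, plus strand: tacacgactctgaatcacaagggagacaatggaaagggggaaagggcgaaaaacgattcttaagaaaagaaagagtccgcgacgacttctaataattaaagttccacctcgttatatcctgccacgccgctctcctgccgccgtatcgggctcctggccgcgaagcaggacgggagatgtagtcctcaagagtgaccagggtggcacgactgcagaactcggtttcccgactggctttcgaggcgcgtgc
FOXO4 after its start, chrX:71095863-71095892, plus strand: cccggcgagtgGTAAACAgagacgtcagga
TOP2A, chr17:40417897-40418146, minus strand: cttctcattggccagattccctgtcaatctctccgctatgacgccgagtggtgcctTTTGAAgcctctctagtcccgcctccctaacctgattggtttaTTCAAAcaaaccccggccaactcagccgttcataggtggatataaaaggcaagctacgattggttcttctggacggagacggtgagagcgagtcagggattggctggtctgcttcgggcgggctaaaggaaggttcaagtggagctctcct

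The FOXK1 window held no GTAAACA and was rich in G and C, with 84.3% against a median of 58.7% for all promoters (300 bases each). The FOXO4 promoter held 1 match, starting at base 24 after the gene start, and none in the 250 bases before it. Over the 300 bases GTAAACA was found in 3.42% of 35116 promoters, and over the 250 bases before the start in 2.98%. Of the 9 forkhead genes with a promoter in the table, the other with a match was FOXP1, at 1 of its 6 starts. The TOP2A promoter held TTTGAA on one strand and on the other, starting 194 and 151 bases before the start, and 15.2% of all promoters held this shorter motif. The motifs and the window were chosen after the values were seen, and a match describes letters, not binding.

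FOXM1 was barely detected, with 2 reads in each DMSO library and none in either RAME library. At the DMSO level, 2.66 reads would have been seen over both RAME libraries. A count of 0 allows up to 3 reads, so no fall can be bounded at this depth and no fold is given. The gene was below the filter of the test, and in a fit of all 11683 genes with a read its adjusted p was 0.687 (edgeR's quasi-likelihood test). That fit called 2.62% of the genes higher and 4.12% lower. Of the 368 genes with 4 reads over both DMSO libraries, 82 (22.3%) also had none with RAME. Exactly these counts were seen in 20 genes, FOXM1 included, and the mirror image of 0, 0, 2 and 2 in 14.

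The end of FOXM1 overlaps a neighbouring gene, and the part of this overlap in its count was not tested. In GENCODE transcripts, all 326 windows of 75 bases in the last 400 bases of FOXM1-210 were also found on the opposite strand in ITFG2. ITFG2 was listed at 0 in all 4 libraries, and whether strand was used in the counting is not given in the sources used here. The remaining 9 genes had none of their end windows shared with another gene. FOXM1, FOXO6 and FOXP1 stand on the study's list of lower genes, which was drawn from these libraries, so their counts here are not independent evidence of direction. FOXK1, described below as lower, is not on that list. Apart from sequencing, the paper reports lower FOXM1 protein by immunoblot and lower FOXM1 mRNA by RT-qPCR in SKOV-3 cells given RAME.

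FOXO4, the family member encoded on chromosome X, rose with RAME. It had 83 and 127 reads with DMSO and 185 and 210 with RAME, or 34.6 and 48.6 CPM against 133 and 121 CPM. Both RAME libraries lay above both DMSO libraries in spite of their lower depth. The fold was 3.06 (log2 1.61 ± 0.33 SE, n = 2 per group, edgeR adjusted p = 0.014). The call held in all 17 alternatives, with log2 fold changes of 1.36 to 1.90.

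FOXO1 and FOXO3, the FOXO factors most studied in stress resistance and metabolism, did not pass the test. FOXO1 had 38 and 55 reads with DMSO and 47 and 62 with RAME, and its log2 fold change was 0.92 ± 0.44 (SE, edgeR adjusted p = 0.179). FOXO3 had 56 and 88 reads with DMSO and 79 and 72 with RAME, with 0.78 ± 0.41 (SE, adjusted p = 0.214). In CPM both genes had their RAME libraries above their DMSO libraries, at 33.9 and 35.8 against 15.8 and 21.1 CPM for FOXO1 and 57.0 and 41.6 against 23.4 and 33.7 CPM for FOXO3. The range of 2 SE either side of the log2 fold change ran from 0.040 to 1.79 for FOXO1 and from −0.032 to 1.60 for FOXO3. This range is narrower than a 95% interval, and the unadjusted p in edgeR was 0.059 for FOXO1 and 0.080 for FOXO3. FOXO3B, a gene copied from FOXO3, had 40 and 95 reads with DMSO and 88 and 64 with RAME. Of the FOXO3 windows 22.9% were shared with other genes, but none in its last 400 bases, where 3′ reads start.

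FOXO6, a FOXO factor best known from the brain, fell. It had 20 and 17 reads with DMSO and 1 and 0 with RAME. Over the groups this was 7.63 CPM against 0.311 CPM, a ratio of 24.6 with a 95% exact binomial interval of 4.14 to 996 that covers counting error alone, because PCR copies of a molecule cannot be told from other molecules here. The fitted log2 fold change was −4.28 ± 1.11 (SE, edgeR adjusted p = 0.030). Of 477 genes with 30 to 45 reads over both DMSO libraries, 6 (1.26%), FOXO6 included, had at most 1 read with RAME. This range and cut were set around the counts of FOXO6, so the share is a description and not a test. The call was lost without DMSO 1 (adjusted p = 0.089) and without RAME 2 (adjusted p = 0.123), and it was lost without each library in turn when the genes were filtered again, with adjusted p from 0.056 to 0.172. DESeq2 gave no adjusted p, and in thinned libraries the gene was below the filter.

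Within the FOXO family the makeup of the reads differed between the groups. A 3′ library gives about 1 read start per transcript end, so these shares are not scaled by length. FOXO4 made up 42.1% and 44.3% of FOXO reads with DMSO and 59.3% and 61.0% with RAME, and the intervals for counting error of the DMSO libraries (35.1% to 49.4% and 38.4% to 50.2%) did not reach those of the RAME libraries (53.6% to 64.8% and 55.7% to 66.2%). FOXO6 went from 10.2% and 5.92% to 0.321% and 0%, where 0 of 344 reads allows up to 0.872%. The summed FOXO level was 82.2 and 109.9 CPM with DMSO and 224.9 and 198.7 CPM with RAME, and these shares were chosen for description after the values were seen. The intervals leave out the spread between libraries, which over all genes was far larger than counting error. The shares rest on the same counts as the FOXO4 and FOXO6 calls.

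**Figure D2:**
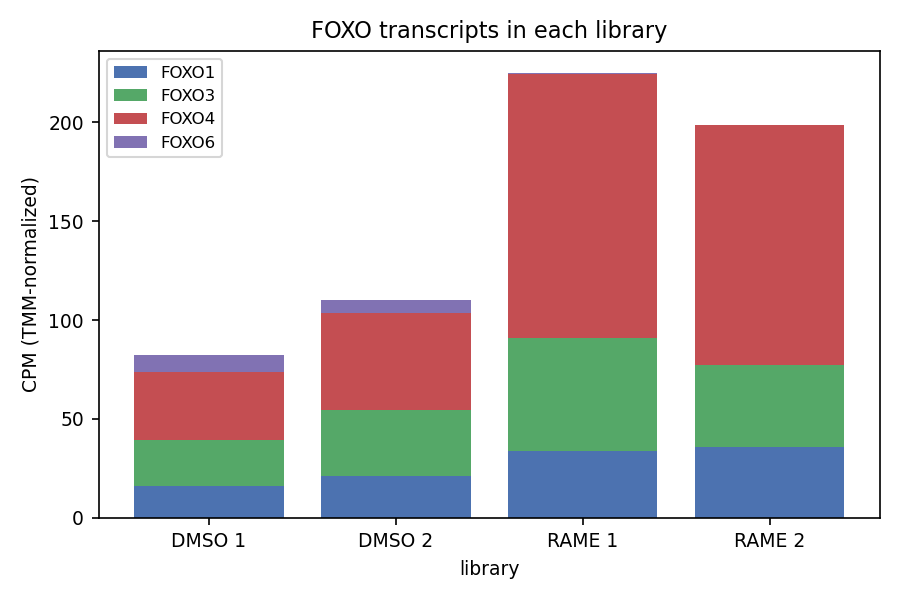
Stacked level of the FOXO genes in each library, in TMM-normalized CPM on a linear axis from 0. The RAME bars reach 224.9 and 198.7 CPM against 82.2 and 109.9 CPM with DMSO, and FOXO4 is the largest segment in each library.

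FOXK1, known in mouse muscle cells as a repressor of autophagy genes, fell. It had 72 and 43 reads with DMSO and 3 and 4 with RAME, or 30.03 and 16.5 CPM against 2.16 and 2.31 CPM. The DMSO libraries differed by 1.82-fold between themselves, and both lay far above both RAME libraries. The log2 fold change was −3.34 ± 0.66 (SE, n = 2 per group, edgeR adjusted p = 0.011), a 10.1-fold fall. The ratio of the group levels was 10.9, with a counting interval of 5.13 to 27.7, and the call held in all 17 alternatives, with log2 fold changes of −3.70 to −2.84.

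FOXK2, its paralogue, had 505 and 364 reads with DMSO and 94 and 213 with RAME. Its log2 fold change was −0.87 ± 0.37 (SE, edgeR adjusted p = 0.134), and both RAME libraries (67.8 and 123 CPM) lay below both DMSO libraries (211 and 139 CPM). The RAME libraries differed by 1.82-fold, and the gene passed in 1 of 17 alternatives. FOXK1 made up 12.5% and 10.6% of FOXK reads with DMSO and 3.09% and 1.84% with RAME. The counting intervals were 9.89% to 15.5% and 7.75% to 13.97% with DMSO, and 0.642% to 8.77% and 0.504% to 4.65% with RAME, so that of RAME 1 met that of DMSO 2. The difference between the 2 fold changes was not tested.

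FOXP1, a repressor active in lymphocytes and in many epithelia, fell. It had 603 and 584 reads with DMSO and 120 and 221 with RAME, or 252 and 224 CPM against 86.5 and 128 CPM. The groups did not overlap, and the RAME libraries differed by 1.48-fold. The log2 fold change was −1.15 ± 0.32 (SE, edgeR adjusted p = 0.040), a 2.21-fold fall. The call held in 11 of 17 alternatives, and among those that lost it were the fits without DMSO 1 (log2 −1.06, adjusted p = 0.112), without RAME 1 (log2 −0.90, adjusted p = 0.275) and with upper quartile scaling (adjusted p = 0.051).

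FOXJ3 and FOXN3 did not pass the test. FOXJ3, known in mouse as an activator of Mef2c in muscle, had 350 and 511 reads with DMSO and 178 and 231 with RAME, and a log2 fold change of −0.38 ± 0.31 (SE, edgeR adjusted p = 0.435). FOXN3, a repressor linked to cell cycle checkpoints, had 383 and 554 reads with DMSO and 266 and 336 with RAME. Its log2 fold change of 0.054 ± 0.31 (SE, adjusted p = 0.931) changed sign with the scaling, and 2 SE either side of it ran from −0.56 to 0.67. FOXJ3 lay at 146 and 196 CPM with DMSO and 128 and 133 CPM with RAME.

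**Figure D3:**
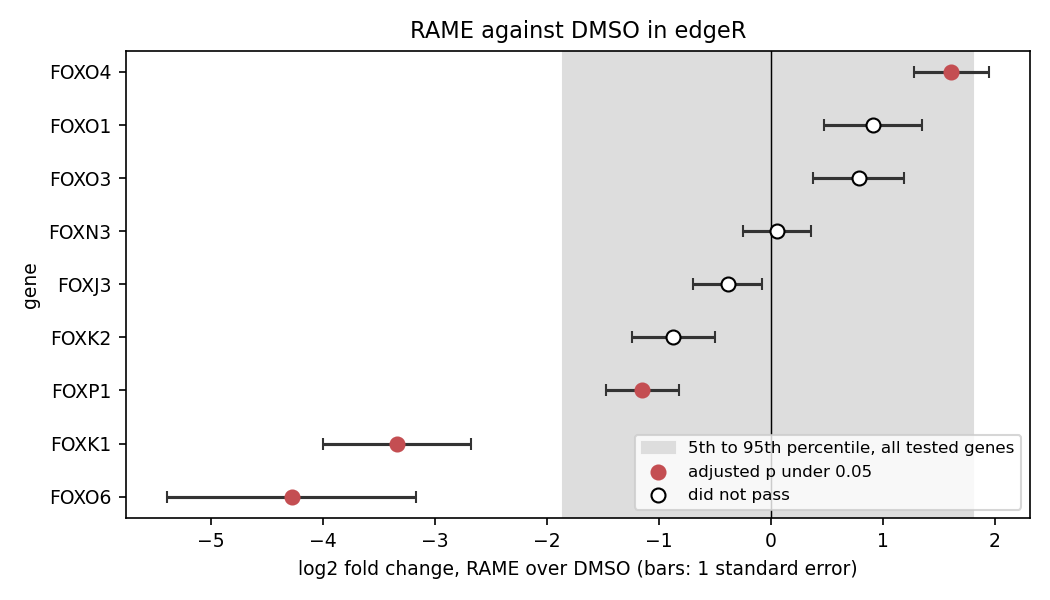
Log2 fold change of RAME over DMSO for the 9 tested genes in edgeR, with bars of 1 standard error; the grey band holds the 5th to 95th percentile of all tested genes (−1.85 to 1.81). FOXK1 (−3.34) and FOXO6 (−4.28) lie outside the band, and FOXO4 (1.61) and FOXP1 (−1.15) inside it.

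With DMSO the order of mean levels was FOXP1, FOXN3, FOXK2, FOXJ3, FOXO4, FOXO3, FOXK1, FOXO1, FOXO6 and FOXM1, from 238 to 0.800 CPM. FOXN3, FOXK2 and FOXJ3 overlapped in their 2 libraries, as did FOXO3, FOXK1 and FOXO1 between neighbours. With RAME FOXN3 led at 193 CPM, and FOXO4 at 127 CPM lay among FOXJ3, FOXP1 and FOXK2, whose ranges overlapped between neighbours. These CPM count reads at transcript ends and are not divided by length.

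The tested genes closest to FOXK1 over the 4 libraries, by root mean square difference of centred log2 CPM, were CRTC2 (0.142), ARHGEF6 (0.211) and RPP38 (0.218). CRTC2 had 17 and 13 reads with DMSO and none with RAME, so its likeness rests on the prior count of 2 added to zeros. ARHGEF6 had 73, 51, 4 and 7 reads, with the DMSO libraries first. Within 0.5 of FOXK1 there were 63 genes, and within 0.5 of FOXO4 there were 758, so the FOXO4 pattern was common. The closest to FOXO4 were SLC38A2 (0.0036), PRPF18 (0.034) and CALR (0.062), with 567, 859, 1244 and 1404 reads for SLC38A2.

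**Figure D4:**
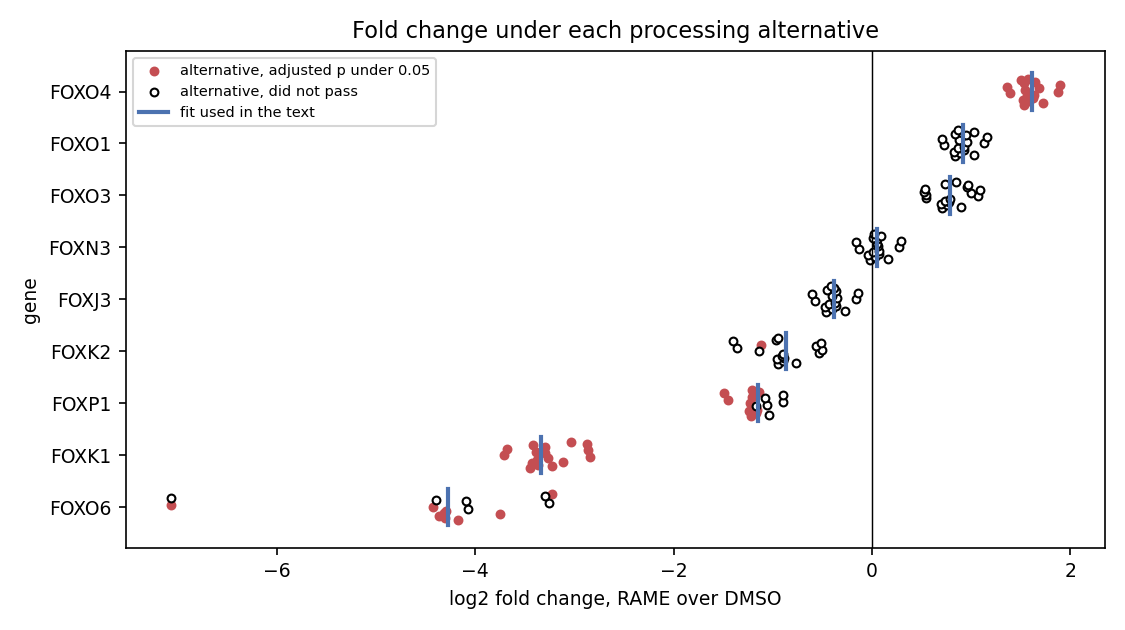
Log2 fold change of each tested gene under the processing alternatives that were read out per gene (points; the crossed pairing is not among them) and in the fit used here (blue lines); filled points have an adjusted p under 0.05. All points of FOXK1 (−3.70 to −2.84) and FOXO4 (1.36 to 1.90) are filled, those of FOXO6 and FOXP1 are mixed, and those of FOXN3 lie on both sides of 0.

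Of 40 FOXO target genes 19 were tested, of which 2 rose, 1 fell and 16 did not pass, with a median log2 fold change of 0.35. Over all tested genes 6.46% were called higher and 7.08% lower, and the called counts of this list were near those shares. At an unadjusted p under 0.05 in edgeR 6 of the list were higher and 1 lower. The share of all tested genes at this unadjusted cut was not taken. Such counts, here and for the lists below, therefore have no background and set no list apart. BBC3, the gene of the apoptosis inducer PUMA, had 232 and 401 reads with DMSO and 803 and 841 with RAME (log2 2.09 ± 0.33 SE, edgeR adjusted p = 0.0046). BNIP3, a mitophagy receptor named after its values were seen, rose from 6 and 4 to 21 and 37 reads (log2 3.15, adjusted p = 0.014). CITED2, a regulator of CBP/p300 binding, fell from 7140 and 2512 to 241 and 733 reads (log2 −2.72 ± 0.57 SE, adjusted p = 0.018), with a wide gap between its DMSO libraries. CDKN1B, the cell cycle inhibitor p27, had a log2 fold change of −0.025 (adjusted p = 0.968). The calls of BBC3 and CITED2 held in all 17 alternatives.

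GTAAACA was found in the promoters of 7 of the 33 FOXO targets with a promoter (21.2%), against 4.19% of all 27305 genes. In the 250 bases before the start it was found in 6 of them, against 3.66% of all genes. BBC3 and CITED2 had no match, and these letters say nothing on which factor was bound. The list was chosen as known FOXO targets, so its share describes the list and not the response to RAME.

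Of 16 genes of the PI3K-AKT pathway 11 were tested, of which 2 rose and 1 fell, in a table where 6.46% of tested genes were called higher and 7.08% lower. At an unadjusted p under 0.05 in edgeR 3 of the list were higher and 2 lower. Such counts are too small to set the list apart. IGF1R, a receptor that activates PI3K, rose from 59 and 66 to 96 and 104 reads (log2 1.37 ± 0.37 SE, edgeR adjusted p = 0.035), and 7 of 17 alternatives lost the call. PDPK1, the kinase that activates AKT, fell from 512 and 97 to 7 and 33 reads (log2 −3.33 ± 0.84 SE, adjusted p = 0.033), and its call was lost in 4 of 17 alternatives, among them DESeq2, limma-voom and the fit without DMSO 1. A near-identical copy of PDPK1 exists in the genome, so its reads are uncertain. AKT1, named after its values were seen, rose from 3 and 1 to 11 and 10 reads (edgeR adjusted p = 0.048). Its call was lost in 14 of 17 alternatives and kept only with upper quartile scaling. In the others, among them thinned libraries, the gene was below the filter.

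Of 18 other regulators of FOXO proteins 17 were tested, and 1 rose and 0 fell in edgeR. The shares of all tested genes were 6.46% called higher and 7.08% lower. At an unadjusted p under 0.05 in edgeR 2 were higher and 2 lower. DESeq2 called 0 higher and 2 lower, and limma-voom called 0 in either direction. MDM2, a ubiquitin ligase for p53 and FOXO proteins that was named after its values were seen, rose from 2 and 1 to 9 and 14 reads (edgeR adjusted p = 0.029). Its call was lost in 9 of 17 alternatives, and in others, among them thinned libraries, the gene was below the filter. SIRT1, a deacetylase of FOXO proteins, had 524 and 515 reads with DMSO and 123 and 207 with RAME (log2 −0.99, adjusted p = 0.056).

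Of the 4 FOXM1 targets that the study names, chosen on these same samples, 3 were tested and TOP2A fell. The share of all tested genes called lower was 7.08% in this fit. At an unadjusted p under 0.05 in edgeR all 3 were lower, in a list the study drew from these libraries. TOP2A, the DNA topoisomerase of dividing cells whose promoter is shown above, had 921 and 1377 reads with DMSO and 78 and 60 with RAME. Its log2 fold change was −3.33 ± 0.37 (SE, edgeR adjusted p = 0.00045), and the call held in all 17 alternatives. CCNB1, the mitotic cyclin B1, had 32, 30, 1 and 6 reads (log2 −2.47, adjusted p = 0.051), and CENPF, a kinetochore protein, had 28, 28, 2 and 7 (log2 −1.96, adjusted p = 0.084). UBE2C, a ubiquitin-conjugating enzyme of mitotic exit, had 4, 3, 0 and 0 reads and was not tested. The paper has other evidence on these genes. By RT-qPCR it reports that mRNA of all 4 fell with RAME dose in SKOV-3 cells, and that target mRNA fell in another ovarian cancer line. By ChIP-qPCR it reports less FOXM1 at the CCNB1 and UBE2C promoters. After FOXM1 knockdown it reports no change of the targets with RAME.

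Of 31 other FOXM1 targets of G2/M only 9 were tested, of which 3 fell and 6 did not pass, with a median log2 fold change of −1.14. In this list 5 genes had no read in any library (AURKA, CDC25C, CENPA, KIF20A and CDCA8), and the cause was not tested. The share of all tested genes called lower was 7.08%, and the median of all tested genes was 0.0067. At an unadjusted p under 0.05 in edgeR 0 of the list were higher and 4 lower. CKS2, a subunit of the CDK1 complexes, fell from 423 and 221 to 32 and 26 reads (log2 −2.78 ± 0.45 SE, edgeR adjusted p = 0.0058), and its call held in all 17 alternatives. PTTG1, the gene of securin, fell from 93 and 35 to 3 and 11 reads (log2 −2.55, adjusted p = 0.040). PRC1, a midzone protein named after its values were seen, fell from 27 and 15 to 0 and 2 reads (adjusted p = 0.041). The calls of PTTG1 and PRC1 were each lost in 6 of 17 alternatives, among them without DMSO 1 and without RAME 1, and PTTG1 has near-identical copies. In thinned libraries PRC1 was below the filter, which is not counted among its lost calls. CCNA2, cyclin A2, had a log2 fold change of 0.25 (adjusted p = 0.748).

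TTTGAA was found in the promoters of 17 of the 27 other FOXM1 targets with a promoter (63.0%), against 18.2% of all genes. CKS2 and PRC1 were among them. In the 250 bases before the start the count was 16, against 16.1% of all genes. These genes were chosen as known FOXM1 targets, so their share describes the list and not the response to RAME.

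Of the 8 tested genes of the MuvB complex and its partners 0 passed in edgeR, DESeq2 or limma-voom, with 3 lower at an unadjusted p under 0.05 in edgeR. In other alternatives at most 2 were called lower, among them 1 without DMSO 2, 2 without RAME 2 and 1 with library size only. E2F5, a repressor of the DREAM form of the complex, had 144 and 150 reads with DMSO and 30 and 48 with RAME (log2 −1.24, edgeR adjusted p = 0.054).

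Among the FOXK partner complexes 9 genes were tested and OGT fell, beside 7.08% of all tested genes called lower. The median log2 fold change of the list was 0.35, and at an unadjusted p under 0.05 in edgeR 3 were higher and 2 lower. OGT, the O-GlcNAc transferase that binds BAP1 complexes, had 105 and 200 reads with DMSO and 31 and 32 with RAME (log2 −1.56 ± 0.43 SE, edgeR adjusted p = 0.037), and 8 of 17 alternatives lost the call. SIN3A, the scaffold recruited by FOXK factors, had 18, 19, 35 and 27 reads (log2 1.45, adjusted p = 0.095).

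Among the FOXP partner complexes 10 genes were tested and 3 fell, beside 7.08% of all tested genes called lower. Most genes of this list are NuRD subunits. At an unadjusted p under 0.05 in edgeR 1 of the list was higher and 5 lower. MTA1 fell from 4902 and 3300 to 675 and 995 reads (log2 −1.64 ± 0.31 SE, edgeR adjusted p = 0.010), and its call held in all 17 alternatives. The deacetylase HDAC2 fell by 1.66 on the log2 scale (adjusted p = 0.014) and the histone-binding protein RBBP7 by 1.27 (adjusted p = 0.024). The call of HDAC2 was lost in 2 of 17 alternatives, both without DMSO 1, and that of RBBP7 in 5, among them the fits without DMSO 1 and without RAME 1. CHD4, the NuRD remodeller, had a log2 fold change of 0.33 (adjusted p = 0.474).

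**Figure D5:**
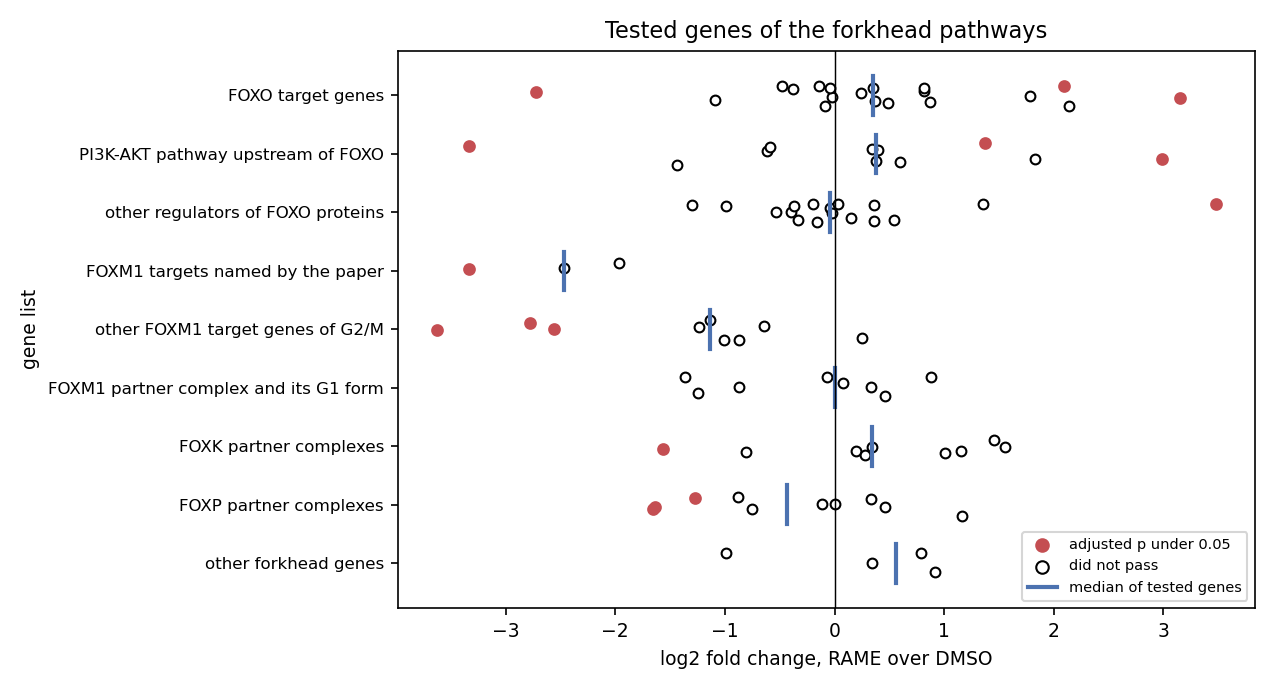
Log2 fold change of RAME over DMSO for each tested gene of the pathway lists; filled points have an adjusted p under 0.05 and blue lines mark the median of a list. The other FOXM1 targets have a median of −1.14, and the FOXO targets one of 0.35 with called genes on both sides of 0.

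Of 40 other forkhead genes listed, 14 had a read and 4 were tested, and 0 passed in edgeR, DESeq2 or limma-voom, with 0 at an unadjusted p under 0.05 in edgeR, and 1 was called higher without DMSO 2. FOXP4 had 83, 142, 130 and 104 reads (log2 0.79, adjusted p = 0.190), FOXC1 had 165, 209, 138 and 155 (log2 0.34, adjusted p = 0.495), and FOXO3B a log2 fold change of 0.91 (adjusted p = 0.216). FOXN2 had 18, 24, 6 and 7 reads (log2 −0.99, adjusted p = 0.332). FOXA1 and FOXL2, the lineage factors of breast and of ovarian granulosa cells, were at 0 in all 4 libraries.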

How the data were processed

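RNA of cells labelled SKOV-3 was sequenced by the study as QuantSeq 3′ libraries and aligned with Bowtie2 to hg19, per the paper's methods and the submitters' processing notes. The sources used here do not give the counter, annotation, strand setting or aligner version. The table deposited by the authors holds raw counts of reads for each gene and normalized values on a log2 scale (log2 of a normalized count plus 1, method not stated). The deposited table also holds the authors' fold ratio and p-value for RAME against control and their group means, which were not used.

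Counts were tested in edgeR 4.0.16 (R 4.3.3; filterByExpr, min.count 10 and min.total.count 15; TMM; robust quasi-likelihood test; Benjamini-Hochberg over 4517 genes). The biological coefficient of variation was 29.9%. CPM are TMM-scaled. An exact permutation test of 2 against 2 cannot go below p = 0.333 and was not used. Replicates differed by far more than counting noise (chi-square per degree of freedom 33.6 for DMSO and 18.5 for RAME), so none was merged for the tests. Reads were summed over a group only for the ratios of group levels and the low-count descriptions. The counting intervals leave out this spread between libraries and are too narrow for it. Intervals of ratios and shares are exact binomial at 95%, ranges of 2 SE are not 95% intervals, and the floor is 3 reads over a group. The script was tested on simulated counts. Alternatives were DESeq2 1.42.0, limma-voom (limma 3.58.1), other scalings, no filter, a replicate block and leaving out each library. Thinning, crossed pairing, the authors' log2 values, FOXO3 summed with FOXO3B, a repeated filter after leaving out a library, and a 250-base motif window were added after the data were seen. For leaving out a library, keeping the 4517 genes fixed was chosen after both forms were seen. Counts of lost calls of list genes leave out alternatives in which the gene was below the filter.

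The forkhead genes and lists were chosen with earlier results of these data known. List genes named are those with an adjusted p under 0.05 and a mean of at least 20 reads, at most 4 per direction, and other forkhead genes with such a mean; further genes given with values were chosen after these were seen, as were the shared-window check, the ranges of read counts compared and the promoters printed. For likeness, the 3 closest genes to the 2 forkhead genes with the smallest p were taken.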

Additional observations from a re-analysis of the deposited data

How the results depend on the processing

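The direction of FOXK1, FOXO4, FOXO6, FOXP1, FOXK2, FOXJ3, FOXO1 and FOXO3 was kept in every alternative that gave a value, and FOXK1 and FOXO4 kept their calls in all. FOXN3 (0.054) turned to −0.024 in DESeq2 and −0.038 with library size only. FOXP1 lost its call with upper quartile scaling (log2 −1.04) and with the replicate block (−1.17, adjusted p = 0.109). Genes called lower (320) numbered 196 in limma-voom and 481 without a filter. Without 1 library and with the genes tested kept fixed, genes called higher (292) ran from 169 to 358, genes called lower from 142 to 499 and forkhead genes called lower from 1 to 3, and the log2 fold change ran from −1.45 to −0.90 for FOXP1, −7.07 to −3.26 for FOXO6 and −0.13 to 0.27 for FOXN3. With the genes filtered again, 191 were higher and 177 lower without DMSO 1, 569 lower without DMSO 2, and 143 higher and 166 lower without RAME 1. In these fits FOXO6 missed the threshold at −4.09 without DMSO 1, −4.40 without DMSO 2, −7.07 without RAME 1 and −3.29 without RAME 2. FOXP1 missed it at −1.08 without DMSO 1 and −0.90 without RAME 1, FOXN3 turned to −0.16 without DMSO 1, FOXK2 passed at −1.12 without DMSO 2, and 1 forkhead gene was called lower without DMSO 1 or RAME 1. Replicate numbers did not pair the libraries (correlation of deviations −0.335). With the replicate block 206 genes were higher and 231 lower. With the crossed pairing, added because same-numbered libraries deviated in opposite directions, 873 and 914 were, of which 3 and 4 were forkhead genes. Over the 4517 genes of the fit used, the median log2 fold change moved by 0.110 with upper quartile scaling, −0.093 with library size only, −0.079 in DESeq2 and −0.047 without a filter. The causes were not tested. FOXM1, UBE2C and most G2/M targets had too few reads in these libraries to be tested.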
